A study of Mus musculus with 9 samples.

Results

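The 10 genes described here are the tumour suppressor p53 (Trp53), 6 genes of its pathway (Mdm2, Cdkn1a, Ccng1, Zmat3, Bax and Bbc3) and the survival genes Bcl2, Bcl2l1 and Mcl1. They were chosen by symbol, and all 10 were found among 24420 genes of the count table and 24347 genes of the FPKM table (fragments scaled to gene length and sequencing depth). RNA was sequenced from islets of female mice, which were kept overnight in medium with 5 mM glucose. The 4 knockout (KO) libraries had the genotype Rip-cre; Ogt f/f, in which an insulin promoter drives Cre recombinase and a floxed Ogt gene is deleted. The 5 wild-type (WT) libraries carried floxed Ogt without Cre, as Ogt f/+ in WT replicates 1 and 3 and as Ogt f/f in the other 3. Since no control carried Cre alone, effects of the transgene and of the deletion cannot be told apart. Run 1 held 3 WT and 2 KO libraries. The later pool, labelled as run 3 in one field and as a 2nd run in another and called run 3 here, held 2 WT and 2 KO libraries. Nothing in the labels ties libraries to separate mice, and the title of WT replicate 4 is longer than the others, so whether it pools mice is unknown. The spread that each p-value is set against is therefore that between libraries and may be technical.

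p53 is a transcription factor that is kept low by Mdm2, a ubiquitin ligase that p53 itself induces, and it accumulates after DNA damage and other stress. Its targets stop the cell cycle (Cdkn1a), feed back on p53 (Mdm2, Ccng1), stabilise or process RNA (Zmat3) or start cell death at the mitochondrion (Bax, Bbc3). There the BCL2 family decides between survival and death: Bcl2, Bcl2l1 and Mcl1 hold the pore-forming effectors Bax and Bak1 in check, and BH3-only proteins such as Bbc3 block the survival proteins.

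The starts of 9 of the 10 genes had a promoter sequence in the RefSeq table (GRCm38.p6), with 14 starts in all; Zmat3 was not matched. The p53 half-site, a 10-base consensus that reads the same on both strands, was searched in the 250 bases before each start. It was found before a start of Trp53, Mdm2, Cdkn1a, Ccng1 and Bax, and before none of the starts of Bbc3, Bcl2, Bcl2l1 and Mcl1. Over all 32851 windows of this length in the table, 7.13% held at least 1 half-site. The more distal of the 2 Cdkn1a starts held 2 half-sites, at −73 and −51 from the start, close enough (at most 13 bases between them) to count as a full site, which 0.0639% of windows held. The following windows are shown because they hold the half-sites, which stand in capitals, and they run 5′ to 3′ towards the start.
Cdkn1a, chr17:29090729-29090978, plus strand: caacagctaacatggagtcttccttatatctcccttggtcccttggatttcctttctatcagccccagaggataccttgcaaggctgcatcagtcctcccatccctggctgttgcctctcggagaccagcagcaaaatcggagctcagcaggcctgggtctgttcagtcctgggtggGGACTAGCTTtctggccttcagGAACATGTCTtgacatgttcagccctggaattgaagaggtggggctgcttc
Ccng1, chr11:40755287-40755536, minus strand: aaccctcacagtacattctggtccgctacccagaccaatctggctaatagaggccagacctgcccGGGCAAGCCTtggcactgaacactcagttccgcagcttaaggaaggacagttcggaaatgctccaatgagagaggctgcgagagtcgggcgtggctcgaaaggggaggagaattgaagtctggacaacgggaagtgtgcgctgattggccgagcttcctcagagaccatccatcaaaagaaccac
Mdm2, chr10:117710759-117711008, minus strand: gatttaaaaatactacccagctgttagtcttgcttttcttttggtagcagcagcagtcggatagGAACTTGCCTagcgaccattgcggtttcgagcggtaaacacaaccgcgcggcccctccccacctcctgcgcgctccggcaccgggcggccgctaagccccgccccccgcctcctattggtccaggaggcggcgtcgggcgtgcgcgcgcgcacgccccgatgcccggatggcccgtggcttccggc
Trp53, chr11:69580109-69580358, plus strand: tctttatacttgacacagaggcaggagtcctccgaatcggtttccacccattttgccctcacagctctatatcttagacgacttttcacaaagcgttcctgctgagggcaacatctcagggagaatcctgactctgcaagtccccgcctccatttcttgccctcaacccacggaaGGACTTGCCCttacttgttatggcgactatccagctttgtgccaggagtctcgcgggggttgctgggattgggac
Bax, chr7:45466899-45467148, minus strand: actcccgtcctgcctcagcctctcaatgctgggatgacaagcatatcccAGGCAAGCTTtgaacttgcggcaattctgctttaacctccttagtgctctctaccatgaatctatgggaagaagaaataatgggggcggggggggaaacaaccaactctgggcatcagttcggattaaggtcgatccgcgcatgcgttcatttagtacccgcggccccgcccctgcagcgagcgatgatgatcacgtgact
A match is a description of the letters and not a measured binding site. Bases further upstream or after the start were not searched, so a gene without a match may hold one there. Among the matched genes only Ccng1 passed the test, lower in KO (log2 fold change −0.48). Trp53, Mdm2, Cdkn1a and Bax did not pass it (0.04, 0.03, 0.35 and 0.40).

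Total counts lay between 3796043 and 6073537 per library. Ogt, the deleted gene, stood at 54.1 to 83.0 CPM (counts scaled to library size) in WT and at 23.7 to 39.3 CPM in KO, with no overlap. Markers of beta cells were present in every library (10 of 10 detected, summing to 47900 to 110200 CPM in WT and 42850 to 83070 CPM in KO). Of these 10, 5 fell and 0 rose in KO, from Mafa (−1.53) to Nkx6-1 (−0.29), and of 5 markers of delta and PP cells 2 rose, Rbp4 (1.31) and Pyy (0.80). Of 15 acinar cell markers 3 fell and 0 rose. The acinar marker level was used as a covariate in an alternative fit, which is given below. The part of the beta, delta and PP cell markers in the results below was not tested. Markers of acinar cells, the enzyme-secreting cells around islets, were detected as 14 or 15 of 15 and differed most between libraries: they summed to 2632 to 6647 CPM in WT and 470 to 2271 CPM in KO of run 1, and to 131 to 153 CPM in WT and 86.7 to 257 CPM in KO of run 3. In bulk islets, fewer cells of a type and less RNA per cell cannot be told apart.

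Of the 10 genes, 1 rose and 2 fell in KO islets. Zmat3, an RNA-binding zinc finger protein, rose, while Ccng1, cyclin G1, and Bcl2l1, which encodes the survival protein Bcl-xL, fell. The other 7 were not called at an adjusted p under 0.05 in edgeR's quasi-likelihood test with run as a term. All 10 passed the filter on low counts. Over all 12501 tested genes 18.5% were called, 9.56% higher and 8.96% lower, so the number of calls does not set these genes apart. Their median log2 fold change was 0.12, against 0.02 over all tested genes. In a model without run 0 of the 10 were called (adjusted p between 0.202 and 0.241 for the 3 genes), with log2 fold changes of 0.39 for Zmat3, −0.60 for Ccng1 and −0.48 for Bcl2l1.

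**Figure D1:**
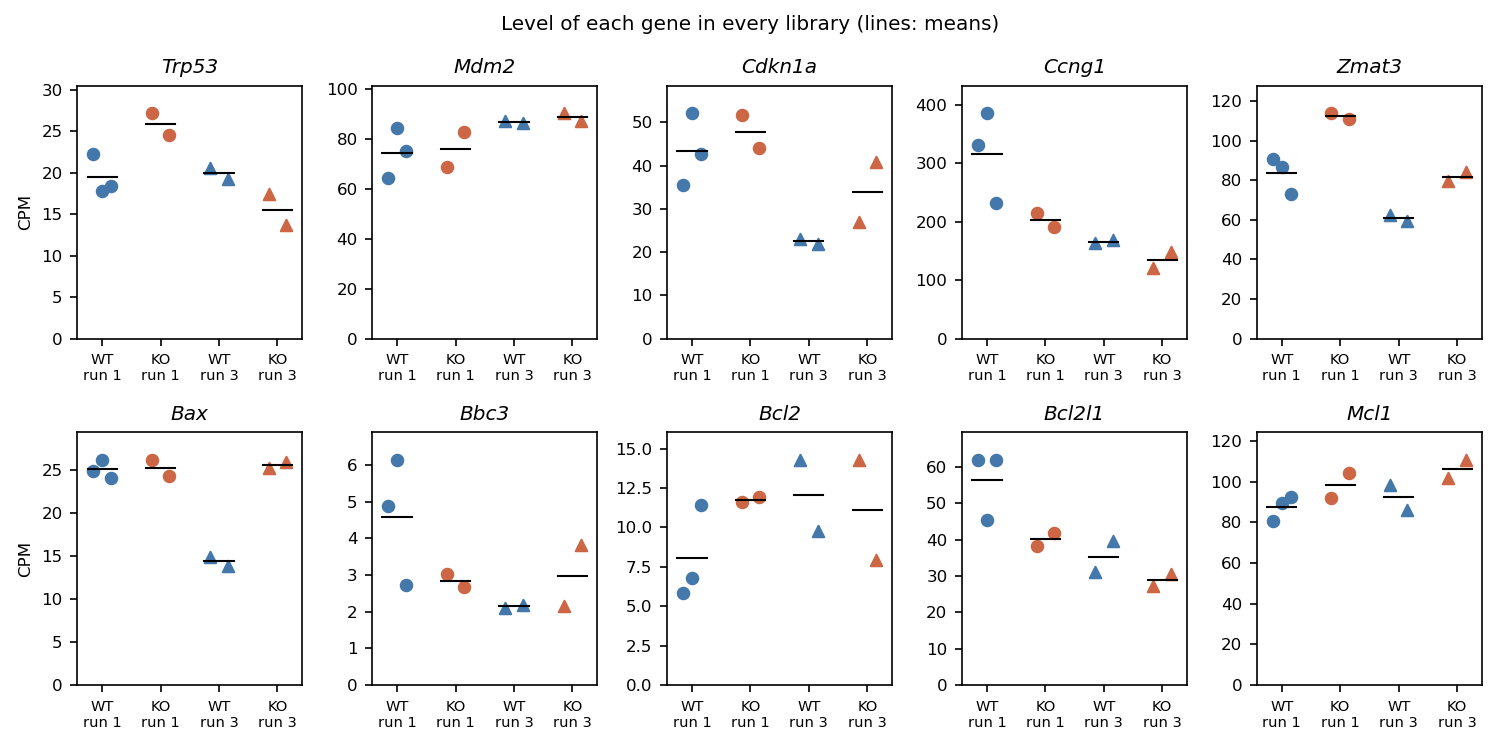
CPM of each of the 10 genes (y axis, from 0) in every library, by genotype and run (x axis); points are libraries and lines are means. Zmat3 lies higher and Ccng1 and Bcl2l1 lie lower in all KO than in all WT libraries of the same run, and Bax is low only in the WT libraries of run 3.

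Zmat3 was the steadiest of the 3 changes. In run 1 the 3 WT libraries had 90.9, 86.5 and 73.1 CPM, and the 2 KO libraries had 114 and 111 CPM. In run 3 the WT libraries had 62.2 and 59.3 CPM, and the KO libraries had 79.6 and 83.9 CPM. Every KO library lay above every WT library of its own run, as it did for 11.9% of all tested genes (22.9% in either direction), although the KO libraries of run 3 lay below 2 WT libraries of run 1. WT libraries averaged 74.4 ± 14.1 CPM (SD, n = 5), and KO libraries averaged 97.1 ± 17.8 CPM (SD, n = 4). The log2 fold change of 0.43 ± 0.08 (SE) passed edgeR's test (adjusted p = 0.00229), and it was 0.42 within each run. An exact two-sided permutation of labels inside each run gave p = 0.0167, which is the lowest possible with 60 arrangements. The gene lies on chromosome 3 from 32334792 to 32366014, minus strand (GRCm38, the mm10 build).

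Ccng1 fell and was the most abundant of the 10 genes per length in both genotypes. It stood at 330, 386 and 233 CPM in WT and at 215 and 190 CPM in KO of run 1, and at 163 and 168 CPM in WT and 121 and 149 CPM in KO of run 3. All KO libraries lay below all WT libraries of their run, as was so for 11% of tested genes, but the 2 runs overlapped. WT libraries averaged 256 ± 99.1 CPM (SD, n = 5), against 169 ± 42.2 CPM (SD, n = 4) for KO. The log2 fold change was −0.48 ± 0.13 (SE; edgeR adjusted p = 0.016), with −0.65 within run 1 and −0.30 within run 3. The exact two-sided permutation p was 0.05. Ccng1 lies on chromosome 11 from 40748552 to 40755311, minus strand. The call was lost without KO replicate 2 (−0.40), without KO replicate 3 (−0.46), without both WT replicates 2 and 5 (−0.41), on FPKM values (−0.49) and with acinar markers as a covariate (−0.36, adjusted p = 0.104).

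Mdm2 and Trp53 themselves were not called. Mdm2 stood between 64.2 and 87.04 CPM in WT and between 68.8 and 90.2 CPM in KO, with overlap in run 1 and KO just above WT in run 3. Its log2 fold change was 0.03, with a 95% interval of −0.16 to 0.23. Trp53 stood at 22.2, 17.8 and 18.4 CPM in WT and at 27.2 and 24.6 CPM in KO of run 1. In run 3 it stood at 20.6 and 19.3 CPM in WT and at 17.4 and 13.7 CPM in KO. KO was thus above WT in run 1 and below it in run 3, with no overlap within either run. The share of all tested genes with such opposite sides, or with no overlap in a single run, was not computed. Over both runs the log2 fold change of Trp53 was 0.04 (95% interval −0.31 to 0.40), and the difference between runs is given in the closing section.

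Cdkn1a, the cell cycle inhibitor p21, and the effector Bax had positive fold changes that did not pass the test. Cdkn1a stood at 35.4, 52.1 and 42.8 CPM in WT and at 51.7 and 44.1 CPM in KO of run 1, where the groups overlapped. In run 3, with 23.04 and 21.96 CPM in WT and 26.9 and 40.8 CPM in KO, they did not. The share of all tested genes without overlap in that run was not computed. Its log2 fold change was 0.35 (edgeR adjusted p = 0.122) and 0.13 and 0.59 within runs 1 and 3. Bax was level in run 1, at 24.9, 26.2 and 24.1 CPM in WT and 26.2 and 24.3 CPM in KO. In run 3 the KO libraries kept this level, at 25.3 and 26.0 CPM, while the WT libraries stood at 14.9 and 13.9 CPM. The log2 fold change of Bax was 0.40 over both runs (edgeR adjusted p = 0.0928), −0.0030 in run 1 alone (adjusted p = 0.995) and 0.82 in run 3 alone (adjusted p = 0.0228). The interaction of genotype and run was 0.82 for Bax (unadjusted p = 0.0043, edgeR adjusted p = 0.795), so a difference between the runs was not called. With acinar markers as a covariate both genes were called, at 0.59 for Cdkn1a (adjusted p = 0.0113) and 0.57 for Bax (adjusted p = 0.0392).

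Bbc3, the BH3-only protein PUMA, was the least counted gene, with 2.11 to 6.15 CPM in WT and 2.16 to 3.82 CPM in KO. The groups overlapped in both runs. At this depth its log2 fold change of −0.12 had a 95% interval of −0.92 to 0.68, so changes of moderate size in either direction were not detectable.

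**Figure D2:**
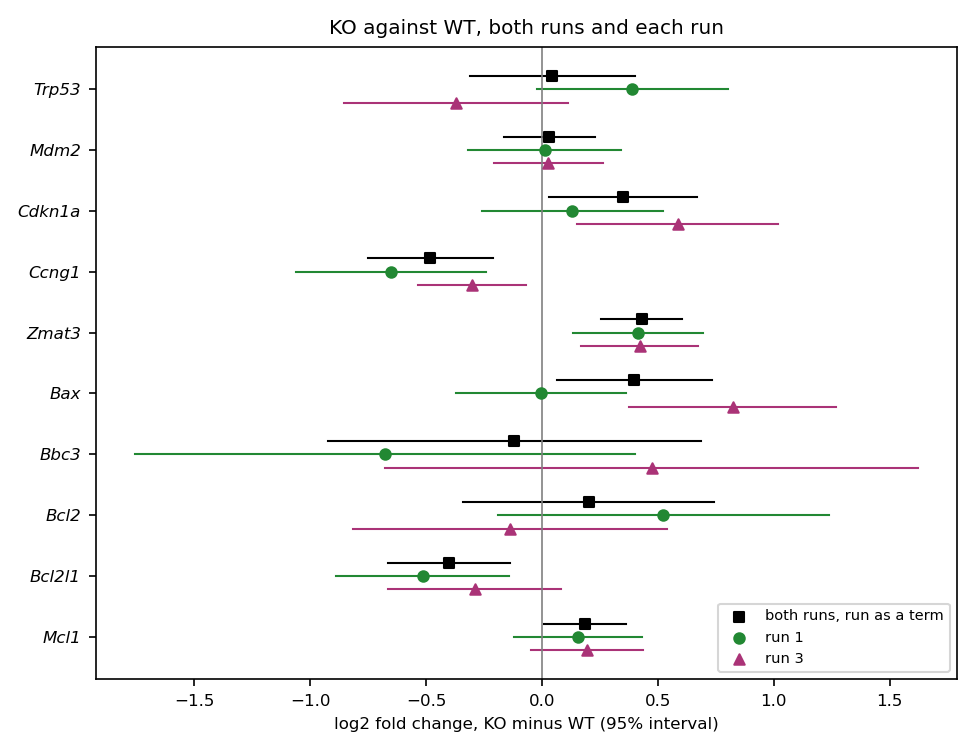
Log2 fold change of KO minus WT (x axis) with its 95% interval for each gene (y axis), over both runs and within each run, from edgeR's fit across all genes. Zmat3 is at 0.43 overall and 0.42 in each run, whereas Trp53 is at 0.39 in run 1 and −0.37 in run 3.

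Among the survival genes, Bcl2l1 fell while Mcl1 and Bcl2 were not called. Bcl2l1 stood at 62.04, 45.3 and 61.9 CPM in WT and at 38.3 and 41.9 CPM in KO of run 1, and at 31.02 and 39.5 CPM in WT and 27.3 and 30.5 CPM in KO of run 3. Each KO library lay below the WT libraries of its run, as was so for 11% of tested genes. The gap between KO replicate 4 and WT replicate 4 was small. Bcl2l1 averaged 48.0 ± 13.8 CPM over WT libraries (SD, n = 5) and 34.5 ± 6.76 CPM over KO libraries (SD, n = 4). The log2 fold change was −0.40 ± 0.12 (SE; edgeR adjusted p = 0.0348), with −0.51 within run 1 and −0.29 within run 3, and the exact two-sided permutation p was 0.05. The gene lies on chromosome 2 from 152780668 to 152831728, minus strand, and the counts do not separate its splice forms. Leaving out any of WT replicates 1, 3 and 5 (−0.35, −0.36 and −0.37) or KO replicates 1, 2 and 3 (−0.35, −0.40 and −0.39) ended this call. So did the use of Ogt f/f controls only (−0.24, adjusted p = 0.259), the removal of both WT replicates 2 and 5 (−0.44), the acinar covariate (−0.39) and unfiltered FPKM values (−0.46).

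Mcl1, a survival protein of short half-life, stood between 80.4 and 98.5 CPM in WT and between 92.0 and 111 CPM in KO. Its log2 fold change was 0.19 ± 0.08 (SE; edgeR adjusted p = 0.136), with overlap in run 1 and none in run 3. The exact two-sided permutation p of Mcl1 was 0.05, the same as for Ccng1 and Bcl2l1. Bcl2 stood between 5.86 and 14.3 CPM in WT and between 7.92 and 14.3 CPM in KO, with a log2 fold change of 0.20 (95% interval −0.34 to 0.74). In run 1 the KO libraries lay above WT for Bcl2 in CPM, but only just. WT replicate 3 (11.44 CPM) and KO replicate 1 (11.59 CPM) both had 46 counts, and in FPKM they stood at 1.470 and 1.468, an overlap. In run 3 the groups overlapped. The share of all tested genes with no overlap in a single run was not computed, for Mcl1 or for Bcl2.

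Per gene length the 10 genes fell into tiers. In WT, Ccng1 led with 72.4 ± 23.3 FPKM (SD, n = 5). Mcl1 (26.0 FPKM), Bax (25.7 FPKM), Mdm2 (24.1 FPKM), Bcl2l1 (20.8 FPKM) and Cdkn1a (18.6 FPKM) followed, each within the spread of the next. Trp53 (10.4 FPKM) and Zmat3 (9.30 FPKM) formed the next pair, and Bbc3 (1.58 FPKM) and Bcl2 (1.41 FPKM) the lowest. Ccng1 also led in KO, at 48.3 ± 8.25 FPKM (SD, n = 4). In KO Zmat3 (12.2 FPKM) stood above Trp53 (11.2 FPKM), though within its spread, and Bcl2l1 (14.6 FPKM) came after Cdkn1a (22.2 FPKM). Bcl2 was thus the least abundant of the survival genes per length in both genotypes, as RNA.

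**Figure D3:**
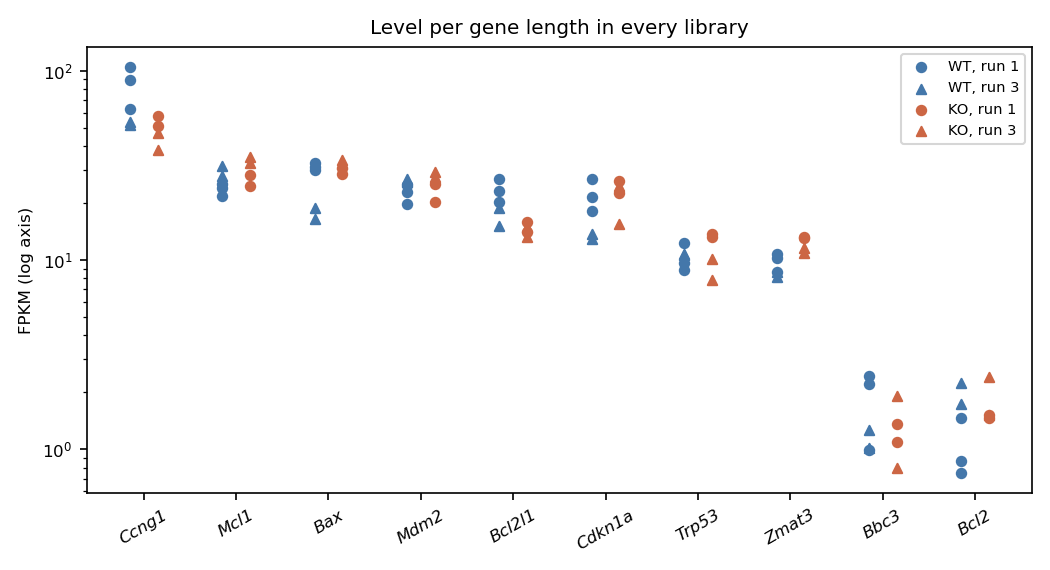
FPKM of the 10 genes (y axis, log scale) in every library, with WT to the left and KO to the right of each gene and runs as different symbols; genes are ordered by WT mean. Ccng1 is highest, at 38.0 to 104 FPKM over all libraries, and Bbc3 and Bcl2 are lowest.

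The RNA ratio of Bax to Bcl2l1 within a library was higher in KO. From FPKM values, the 5 WT libraries had ratios of 1.15, 1.61, 1.28, 1.10 and 0.992, and the 4 KO libraries 2.17, 1.79, 2.53 and 2.14. The groups did not overlap over all 9 libraries in FPKM, while 11.1% of single tested genes showed no overlap in CPM. In counts the gap nearly closed. WT replicate 2 had 81 counts of Bax and 140 of Bcl2l1, and KO replicate 2 had 100 and 172. The mean was 1.23 ± 0.238 (SD, n = 5) in WT and 2.16 ± 0.302 (SD, n = 4) in KO. In run 1 Bcl2l1 was lower in KO and Bax was level, and in run 3 Bcl2l1 was lower and Bax higher. The ratio of Mcl1 to Bcl2l1 was 0.817 to 2.07 in WT and 1.75 to 2.45 in KO, and did not overlap within either run. The ratio of Bax to Bcl2 overlapped, at 7.41 to 40.9 in WT and 14.0 to 21.1 in KO. Over all 9 libraries the groups also overlapped for the ratio of Bax to Mcl1, with means of 1.03 in WT and 1.05 in KO. They overlapped as well for Bbc3 to Bcl2l1 (0.0766 and 0.0884) and Mdm2 to Trp53 (2.35 and 2.44). These are all 6 ratios computed, of which the 3 given first were chosen after the values were seen, and none was tested.

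**Figure D4:**
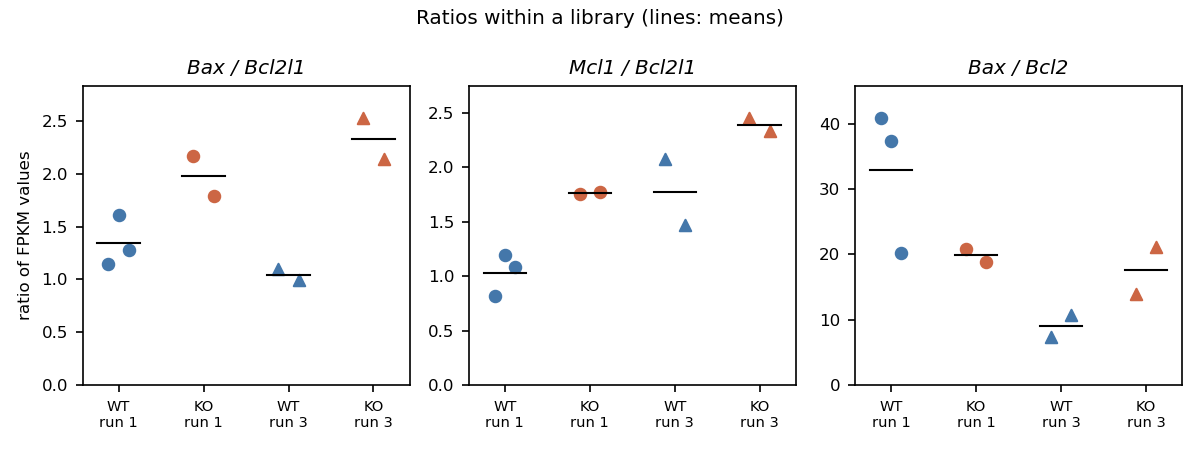
Ratios of FPKM values within a library (y axes, from 0) by genotype and run (x axis); points are libraries and lines are means. The Bax to Bcl2l1 ratio is at most 1.61 in WT and at least 1.79 in KO, while the Bax to Bcl2 ratio overlaps.

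Most of the other p53 targets were not called. Of 40 listed, 34 were tested, 2 rose, 2 fell and 30 were not called, against 18.5% called over all tested genes, with a median log2 fold change of −0.03. Plk3, a stress-activated polo-like kinase, fell from 61.1, 69.3 and 56.7 CPM in WT to 22.2 and 27.8 CPM in KO of run 1, and from 38.9 and 41.6 CPM to 18.6 and 16.0 CPM in run 3. Its log2 fold change was −1.27 (edgeR adjusted p = 3.94e-06), larger than that of any of the 10 genes, and no KO library reached any WT library. Such a lack of overlap over all 9 libraries, in either direction, was found for 11.1% of tested genes. Plk3 overlaps Tctex1d4 on the other strand by 84 bases. Rrm2b, the p53-inducible ribonucleotide reductase subunit, had a log2 fold change of −0.44 (adjusted p = 0.00236; 0.0804 without the run term), and Ak1, an adenylate kinase, rose by 0.70 (adjusted p = 0.00139). Tgfa, a ligand of the EGF receptor, rose by 0.64 (adjusted p = 0.0342). Tgfa missed the threshold when any of WT replicates 1, 4 and 5 and KO replicates 2, 3 and 4 was left out, and in 7 of 13 other settings, the f/f controls only among them. The p53 regulators gave 1 rise, 0 falls and 19 genes not called among 20 tested. The rise was that of Kat5, the acetyltransferase Tip60 (0.36, adjusted p = 0.0249), a call that ended when any of WT replicates 2 and 4 and KO replicates 1 and 4 was left out and in 5 of 13 other settings. Kat5 overlaps Rnaseh2c on the other strand, so its counts are uncertain.

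Of the remaining BCL2 family, the BH3-only gene Bmf rose. Bmf, which responds to loss of attachment and to cytoskeletal stress, stood at 10.3, 8.10 and 10.9 CPM in WT and 19.4 and 29.9 CPM in KO of run 1. In run 3 it stood at 13.1 and 15.7 CPM in WT and at 25.9 and 20.5 CPM in KO. All KO libraries lay above all WT libraries, where 11.1% of tested genes had no overlap over all 9 libraries in either direction. The log2 fold change of Bmf was 1.00 ± 0.19 (SE; edgeR adjusted p = 0.00161), with 1.31 within run 1 and 0.68 within run 3. The other tested BH3-only genes were not called: Bad, Bcl2l11 and Bid had log2 fold changes of 0.44, 0.16 and −0.02, and Bik, Hrk and Pmaip1 were too low to test. Neither effector Bak1 (0.34, adjusted p = 0.213) nor Bok (−0.18, adjusted p = 0.786) was called. Bak1 overlaps Ggnbp1 on the other strand by 9200 bases, so its counts are uncertain. Bcl2l2, the survival protein Bcl-w, was not called either (−0.29, adjusted p = 0.0738). Its KO libraries lay below WT in both runs, as did those of 11% of tested genes. Bcl2l2 overlaps Gm20521, which has no counts of its own here, on the same strand by 4794 bases, so the Bcl2l2 counts are uncertain. Of 6 tested BCL2-like and BNIP3 genes, 1 rose: Bclaf1, a nuclear RNA-processing factor first found as a BCL2 partner (0.38, adjusted p = 0.00395).

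**Figure D5:**
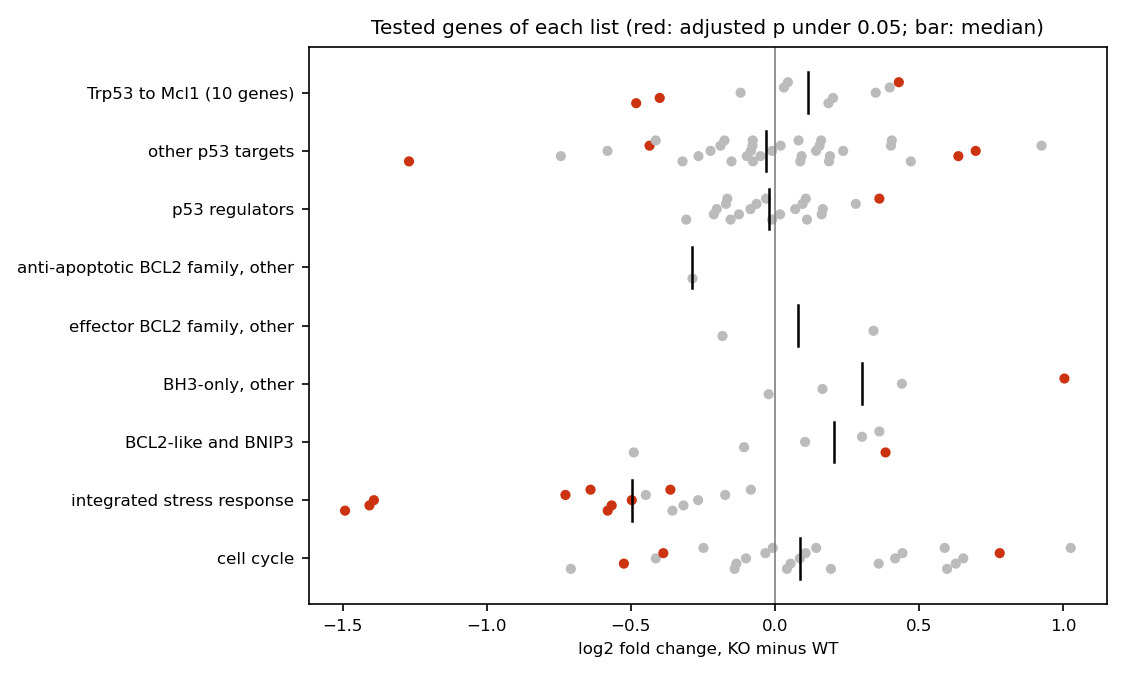
Log2 fold change of KO minus WT (x axis) for the tested genes of each list (y axis); each point is a gene, red where called, and the bar is the list's median. The integrated stress response list lies below 0 with a median of −0.50, while the lists of other p53 targets and p53 regulators lie on both sides of 0.

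The integrated stress response, a pathway that also reaches BCL2 family genes through the transcription factor CHOP (Ddit3), gave falls and no rises. Of 15 tested genes 9 fell, 0 rose and 6 were not called, with a median of −0.50, against 8.96% of all tested genes that fell. The list was chosen with earlier results of these data known, so the comparison with all genes is a description only. Ddit3, Trib3, Atf4 and Cebpg fell by 1.49, 1.39, 0.73 and 0.57 on the log2 scale (edgeR adjusted p between 1.98e-05 and 0.000362). Without the run term Ddit3 was not called (adjusted p = 0.053).

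By library pattern, the genes most like the 3 called ones were named from the Pearson correlation of log2 CPM over the 9 libraries after subtracting run means. For Zmat3 these were Sfxn5 (r = 0.991), Cox4i1 (0.988) and Cd320 (0.988), all higher in KO. For Ccng1 they were Pde5a (0.984), Samd8 (0.983) and Psmg2 (0.981), all lower in KO. For Bcl2l1 they were Rnf103 (0.968), Pbx3 (0.961) and Mob1b (0.957), none of which was called. The libraries differ in genotype and depth, and these differences are common to all genes, so these values describe the pattern only.

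Sequencing run was a larger source of calls than genotype over all genes. With genotype as a term, 0 of the 10 genes were higher and 4 lower in run 3 than in run 1 at an adjusted p under 0.05 (edgeR), against 16.3% of all tested genes that were lower and 31.4% in either direction. These were Ccng1 (−0.78), Cdkn1a (−0.73), Bcl2l1 (−0.59) and Zmat3 (−0.46). Within run 1 alone 0 of the 10 genes were called between KO and WT (3 at an unadjusted p under 0.05), against 6.05% of all genes. Within run 3 alone 2 were called, Zmat3 (adjusted p = 0.0387) and Bax, against 8.17% of all genes. The control genotypes could hardly be compared, since both Ogt f/+ libraries stood in run 1 with a single Ogt f/f library, WT replicate 2, which also had the highest share of ribosomal RNA precursor (28.5%) and the highest summed acinar markers (6647 CPM). For Bcl2l1 the 2 Ogt f/+ libraries had 62.04 and 61.9 CPM and that library 45.3 CPM. With run as a term, the log2 fold change of Bcl2l1 was 0.41 for Ogt f/+ minus Ogt f/f controls, against −0.40 for KO minus WT. In a fit of all libraries with run and genotype as terms, 0 of the 10 genes and 0% of all genes were called between the control genotypes by edgeR. In that fit 398 genes had an unadjusted p under 0.05. This says little, since WT replicate 2 was the only Ogt f/f library in the run of the Ogt f/+ libraries.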

How the data were processed

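The authors deposited read counts per gene symbol and FPKM values, 1 column per library. How libraries were scaled in the FPKM values, which tool counted reads and whether strand was used are not given in the sources used here. FastQC, Bowtie2 2.2.4.0, Cuffdiff 2.2.1, edgeR and the build mm10 are named without roles, per the submitters' processing notes. Symbols turned into dates (27) were left out, and the ribosomal RNA precursor Rn45s (9.62% to 28.5% of counts) was kept.

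KO was compared with WT by edgeR 4.0.16 (R 4.3.3), with TMM, the default low-count filter and a model of run and genotype, on all 12501 genes that passed. Calls are at a Benjamini-Hochberg adjusted p under 0.05 over these genes. CPM values use TMM-scaled library sizes. A single value was tested by an exact permutation of log2 CPM (prior count 2) within runs. The same edgeR test was run within each run, for the interaction and between control genotypes. The script was tested on simulated data. Pairs of replicates had a chi-square of 3.73 to 64.2 per degree of freedom. No pair agreed within counting noise, and each library was counted as 1 sample, as labelled. Coordinates are from GENCODE M21 (GRCm38). Depth limits the precision: 1 count was worth 0.147 to 0.324 CPM.

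The 10 genes and the lists were chosen with earlier results of these data known. Named are all 10 genes, Ogt, up to 4 called genes with the lowest p of each list (or 2 where none was called) and, for each called gene, the 3 genes of most similar pattern. Some results that this rule takes are not reported here. Alternatives were RLE factors, other filters, no run term, DESeq2 1.42.0, limma-voom (limma 3.58.1), limma on log2(FPKM + 0.1) and log2(FPKM + 1), Ogt f/f controls alone, no Rn45s, an acinar covariate and libraries left out.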

Additional observations from a re-analysis of the deposited data

Results flagged for a closer look

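Trp53 was picked out because its KO libraries lay on opposite sides of WT in the 2 runs. In run 1 both KO libraries (27.2 and 24.6 CPM) lay above the 3 WT libraries (17.8 to 22.2 CPM), with a log2 fold change of 0.39. In run 3 both KO libraries (17.4 and 13.7 CPM) lay below the 2 WT libraries (20.6 and 19.3 CPM), with −0.37. The interaction of genotype and run was −0.77 on the log2 scale (95% interval −1.37 to −0.17), with an unadjusted p of 0.0158 and an edgeR adjusted p of 0.795, so the difference between runs did not pass correction over all genes. By edgeR 0 of 12501 genes had a called interaction, and 744 had an unadjusted p under 0.05. How many tested genes had KO on opposite sides of WT in the 2 runs was not counted.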

How the results depend on the processing

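Zmat3 kept its direction in every alternative run and its call in all but the model without run (0.39, adjusted p = 0.202). The count of called genes among the 10 went from 3 to 0 without the run term, and to 1 on log2(FPKM + 0.1) with no filter and without both WT replicates 2 and 5. It was 1 to 3 with single libraries left out, at 1 without KO replicate 2 or KO replicate 3. It was also 3 with the acinar covariate, but these were Bax, Cdkn1a and Zmat3. Over all genes the count of 2315 went to 672 without the run term, 1482 on log2(FPKM + 0.1), 1515 on log2(FPKM + 1), 1041 on FPKM with no filter, 1542 against f/f controls only, 1436 given the acinar covariate and 1496 without WT replicates 2 and 5, and lay between 1602 and 2333 with single libraries left out. Within run 1 the count of 0 became 1 with no low-count filter and lay between 0 and 1 with libraries left out. Within run 3 the count of 2 lay between 0 and 1. The interaction stayed at 0 in every alternative run, as did the control comparison, whose Ogt f/f arm in run 1 is 1 library. The exact permutation test had 1 of the 10 genes under 0.05, 2 on log2(FPKM + 0.1) or log2(FPKM + 1), and 0 to 4 with libraries left out, where fewer arrangements exist. Fold changes near 0 changed sign. Trp53 went to −0.043 with f/f controls and −0.15 with the acinar covariate (−0.071 to 0.19 with libraries left out). Mdm2 went to −0.035 with f/f controls (−0.022 to 0.083), Bbc3 to 0.18 with the acinar covariate (−0.43 to 0.053) and Bok to 0.083 on log2(FPKM + 0.1), filtered or not, and 0.054 on log2(FPKM + 1) (−0.49 to 0.043). The causes were not tested. No paired analysis was possible because the labels give no replicate numbers. Depth limits Bbc3 and Bok most.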

Other observations

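Of 25 tested cell cycle genes beside Cdkn1a 1 rose and 2 fell, against 18.5% called over all tested genes, with a median log2 fold change of 0.09. Ccnd2, the D-type cyclin most abundant in beta cells, fell from 1151 to 869 CPM (−0.39, edgeR adjusted p = 0.00164; 0.0714 without the run term). Rb1, the retinoblastoma protein that D-type cyclins with their kinases inactivate, fell from 47.1 to 32.4 CPM (−0.52, adjusted p = 0.00234). In both, every KO library lay below every WT library of its run, as was so for 11% of tested genes. Rb1 overlaps Lpar6 and Rcbtb2, and Ccnd2 overlaps 9330179D12Rik, on the other strand, so their counts are uncertain. Mcm3, a subunit of the replicative helicase, rose from 8.01 to 13.9 CPM (0.78, adjusted p = 0.0254), a call lost without KO replicates 2 or 3 or WT replicates 4 or 5 and in 4 of 13 other settings.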
